A study of Mus musculus with 13 samples.

Results

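Transcripts of 6 inhibitors of the cell cycle kinases, *Cdkn1b*, *Cdkn1c*, *Cdkn2b*, *Cdkn2c*, *Cdkn2d* and *Cdkn3*, were followed in mouse glomeruli after injection of antibodies against the podocyte protein THSD7A. They were taken by gene symbol from the 35967 symbols of the deposited table, and all 6 were among the 14322 genes tested. At day 5 of membranous nephropathy (MN), the fitted level of *Cdkn1c* rose 1.65-fold, of *Cdkn2c* 2.41-fold and of *Cdkn3* 4.90-fold over control. The fit adds 0.5 to each value, which understates the rise of *Cdkn3*, from a mean of 1.07 to 6.95 TPM. *Cdkn1b* and *Cdkn2b* did not pass the test, and *Cdkn2d* passed on its p-value only. At day 1 none of the 6 passed.

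Glomeruli came from wildtype Balb/c mice, which in the study's MN model were male. The study's methods give an age of 14 to 15 weeks for the littermates used in that model and none for these mice separately. The control group was 5 mice given 2.0 mg of preimmune rabbit IgG into the peritoneum. MN mice received 2.0 mg of rabbit anti-THSD7A IgG by the same route and were killed at day 1 (4 mice) or day 5 (4 mice). Control mice of both days were combined into 1 group, and the day of each was not given, so time after injection and antibody cannot be fully told apart in the comparisons with control. Each of the 13 libraries held RNA of bulk glomeruli isolated after perfusion with magnetic beads, so all glomerular cell types contributed to every value.

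Cyclin-dependent kinases drive a cell from rest into DNA synthesis and mitosis, and the inhibitors hold them back. *Cdkn1b* (p27Kip1) and *Cdkn1c* (p57Kip2) belong to the CIP/KIP family, which binds kinase and cyclin together and blocks the cyclin E, A and B complexes of CDK2 and CDK1. *Cdkn2b* (p15Ink4b), *Cdkn2c* (p18Ink4c) and *Cdkn2d* (p19Ink4d) belong to the INK4 family, which binds CDK4 and CDK6 and keeps them from the D cyclins. *Cdkn3* encodes a phosphatase that removes the activating phosphate from CDK2 and CDK1, and its transcript is itself made mostly in dividing cells. Mature podocytes are known to rest outside the cell cycle and to hold high levels of the CIP/KIP proteins.

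The genes lie apart from each other in GRCm39 (GENCODE annotation). *Cdkn1b* is at chr6:134897364-134902476 and *Cdkn1c* at chr7:143012069-143014806. *Cdkn2b* and *Cdkn2c* share chromosome 4, at chr4:89223204-89229276 and chr4:109517957-109524386. *Cdkn2d* is at chr9:21199700-21202727 and *Cdkn3* at chr14:46997904-47015505. A transcript of the opposite strand, *Gm44732*, shared at least 90% identity over at least 50% of a *Cdkn1c* transcript. The reads of *Cdkn1c* could thus have been divided with it, but *Gm44732* was not among the deposited symbols. The noncoding *4933417O13Rik*, also not among them, overlaps *Cdkn1c* on the same strand. *Cdkn3* overlaps the coding gene *Cnih1* on the opposite strand. No other gene shared that much sequence with a member.

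Promoters were read to see whether the members that moved together share the short elements known from cell cycle genes. RefSeq promoters (GRCm38.p6, 250 bases before to 50 after a start) were at hand for 5 of the 6 genes, with no entry for *Cdkn1c*. On both strands, E2F elements (TTTCCCGC, TTTGGCGC, TTTCGCGC or TTTGCCGC) and the FOXO element (GTAAACA) matched none of these genes, against 2.26% and 3.65% of all 32851 promoters. The cell cycle homology region, written as TTTGAA or TTTAAA, matched *Cdkn3*, *Cdkn1b* and *Cdkn2b*, and 27.6% of all promoters. The stretch around each match is shown because it sets *Cdkn3*, which rose, beside *Cdkn1b* and *Cdkn2b*, which did not pass the test. Capitals mark the match, 111 bases before the RefSeq start in *Cdkn3*, 15 before it in *Cdkn1b* and 161 before it in *Cdkn2b*.
Cdkn3: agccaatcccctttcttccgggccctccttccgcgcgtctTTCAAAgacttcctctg
Cdkn1b: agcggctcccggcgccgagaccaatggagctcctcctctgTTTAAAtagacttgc
Cdkn2b: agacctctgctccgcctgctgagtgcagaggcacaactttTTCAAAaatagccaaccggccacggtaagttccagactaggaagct
In GRCm39 the 3 stretches match chr14:46997847-46997903 on the plus strand, chr6:134897309-134897363 on the plus strand and chr4:89229385-89229470 on the minus strand. The promoters of *Cdkn2c* and *Cdkn2d* held none of the letters searched, which says only that they are not in these windows. The 2 RefSeq starts of *Cdkn2c* lie 433 and 1817 bases inside the annotated gene, that of *Cdkn2d* 222 and that of *Cdkn3* 94. The bases before the annotated start of *Cdkn2c* were therefore not read.

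Values were TPM, transcript abundances scaled to transcript length and to a fixed total per library, so levels can be set side by side between genes. TPM removes the depth of a library, which is therefore unknown, and the values come without an estimate of their counting error. Fold changes are on the log2 scale of TPM, divided by a scaling factor per library (0.955 to 1.04), plus 0.5. A call needed a Benjamini-Hochberg adjusted p below 0.05 and a log2 fold change of more than 0.5 in size, in a limma fit of all genes. The labels do not say that mice of a group came from separate litters or experiments, so the tests measure the spread between these mice.

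Marker transcripts of podocytes were abundant in every library, their 10 members summing to 6824 to 9217 TPM in control, 7214 to 9150 at day 1 and 7535 to 7891 at day 5. None of the 10 was called at either day. At day 5 *Synpo* (log2 fold change -0.46, limma adjusted p = 0.00197) and *Cd2ap* (-0.29, adjusted p = 0.0117) passed on p-value alone. The largest fall of the 10 at day 5 was that of *Magi2* (-0.60, limma adjusted p = 0.0661), which passed on size alone. In its own tests the study reported podocyte transcripts as mostly lower at the later time, this gene among them. Here 4 of the 10 markers had a log2 fold change above 0 at day 5 (median -0.21). No endothelial (8) or mesangial (6) marker was called. At day 5 the 8 endothelial markers had log2 fold changes above 0 (median 0.20), and *Emcn* passed on p-value alone (0.29, limma adjusted p = 0.0127). Summed proximal tubule markers ranged from 249 to 897 TPM in control, 535 to 807 at day 1 and 385 to 527 at day 5, with none of 8 called and the highest value in control replicate 5. At day 1 all 8 lay above control (median log2 fold change 0.75). The 6 markers of later tubule segments summed to 255 to 516, 494 to 897 and 345 to 477 TPM. Of these, 5 were tested, and at day 1 all 5 lay above control (median 0.61) with none called, while *Aqp2* and *Calb1* were lower at day 5 than at day 1. The part of these tubular markers in the values below was not tested beyond a fit with a tubular marker score as covariate. Leukocyte markers summed to 27.2 to 48.4, 36.7 to 57.5 and 22.6 to 54.2 TPM, with 5 of 8 tested and none called. Of the 3 parietal epithelial markers, 2, *Cldn1* and *Cd44*, rose at day 5, and all summed to 13.5 to 17.7, 18.3 to 22.5 and 23.6 to 30.4 TPM. No listed marker found in the table was at 0 in all libraries. In bulk RNA, fewer cells of a type and less RNA per cell cannot be told apart. By immunofluorescence of a podocyte marker, the study reported an unaltered podocyte number in its MN mice.

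*Cdkn1c* held nearly all of the inhibitor RNA. Its share of the summed TPM of the 6 genes had a median of 91.9% in control, 93.4% at day 1 and 93.4% at day 5. Among the 14322 genes it ranked between 63 and 106 by TPM in control libraries, between 53 and 71 at day 1 and between 37 and 43 at day 5. In control and at day 1 the order of mean TPM was *Cdkn1c*, *Cdkn1b*, *Cdkn2d*, *Cdkn2c*, *Cdkn2b* and *Cdkn3*, and only the last pair overlapped between libraries. At day 5 *Cdkn2c* stood beside *Cdkn2d*, and the libraries of this pair overlapped. *Cdkn3*, last in the other groups, then stood above *Cdkn2b* in 4 of 4 libraries.

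**Figure D1:**
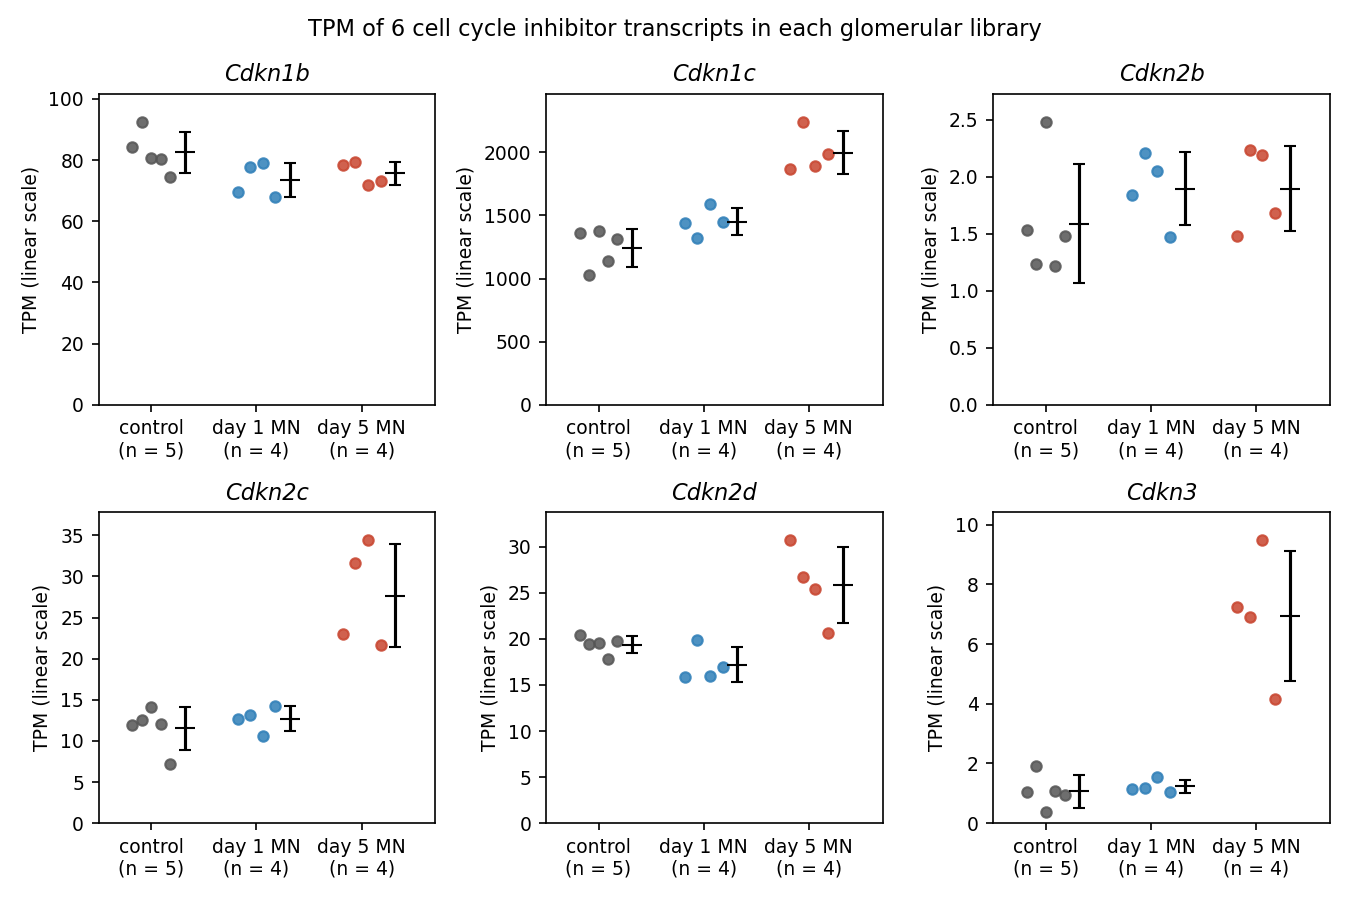
TPM of each inhibitor transcript (vertical axis, linear, from 0) in the control, day 1 MN and day 5 MN libraries. Each point is 1 mouse, and the black bar beside each group is the mean ± SD. Day 5 points lie above all control points for *Cdkn1c*, *Cdkn2c*, *Cdkn2d* and *Cdkn3*, while those of *Cdkn1b* and *Cdkn2b* overlap with control.

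Of the CIP/KIP genes, *Cdkn1c* was listed in control replicates 1 to 5 at 1359, 1031, 1376, 1143 and 1314 TPM. Day 1 replicates 1 to 4 had 1441, 1324, 1589 and 1448 TPM. Day 5 replicates had 1867, 2243, 1895 and 1985 TPM. Every day 5 library was thus above every control and day 1 library, while day 1 and control overlapped through 1 day 1 library. After scaling, day 1 and control just failed to overlap, and 3.50% of all genes did not overlap either. The exact two-sided permutation p for this difference was 0.0397. Mean TPM was 1245 ± 151 (SD, n = 5) in control, 1451 ± 108 (n = 4) at day 1 and 1997 ± 171 (n = 4) at day 5. The log2 fold change at day 5 was 0.72 ± 0.10 (SE), with a limma adjusted p = 7.08e-04. At day 1 it was 0.27 ± 0.10, which failed the correction (adjusted p = 0.309, unadjusted p = 0.0164 in the limma fit). Day 5 exceeded day 1 by 0.45 ± 0.10 (adjusted p = 0.0400), below the size needed for a call. Its adjusted p was under 0.05 in 4 of 13 leave-one-out fits (0.0144 to 0.136) and in 7 of 11 other fits.

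Since *Cdkn1c* is known as a podocyte transcript, its log2 level was also set against the mean log2 level of the 10 podocyte markers in the same library. This difference was 1.74, 1.78, 1.75, 1.57 and 1.65 in control replicates 1 to 5. It was 2.21, 2.10, 2.32 and 1.87 at day 1, and 2.60, 2.77, 2.49 and 2.59 at day 5. The 3 groups did not overlap. Relative to the markers, *Cdkn1c* was higher by 0.43 on the log2 scale at day 1 and by 0.91 at day 5 than in control, each with p = 0.00794 by exact two-sided permutation, the lowest that 5 against 4 libraries can give. Day 5 exceeded day 1 by 0.48 (exact permutation p = 0.0286, the lowest that 4 against 4 can give). Adjusted over these 3 tests, the exact permutation p-values were 0.0119, 0.0119 and 0.0286. That adjustment covered only these 3 tests of *Cdkn1c*, whereas over all genes *Cdkn1c* itself had a limma adjusted p = 0.309 at day 1. The markers themselves contributed, as their mean log2 level differed from control by -0.15 at day 1 and -0.19 at day 5. A gene with an unchanged level would thus also lie above control on this measure. The share of all genes that do so was not computed. Leaving out 1 library at a time gave 0.361 to 0.512 at day 1 and 0.860 to 0.953 at day 5.

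**Figure D2:**
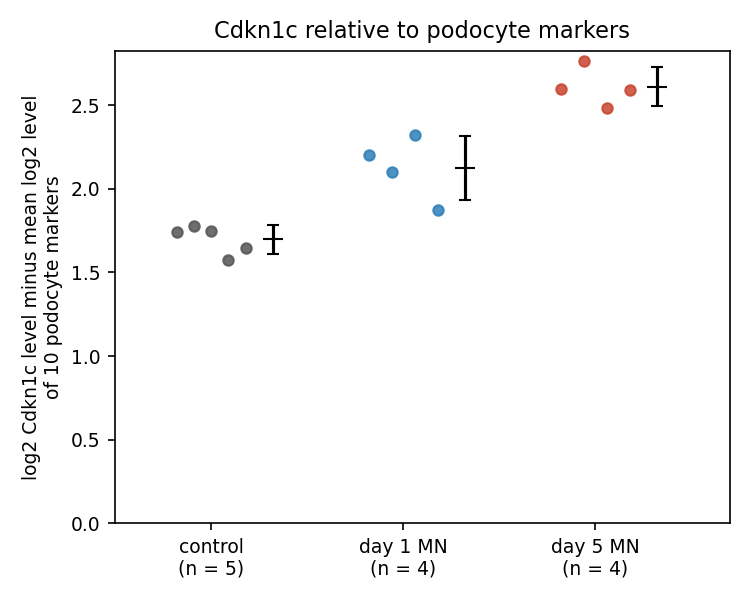
Log2 level of *Cdkn1c* minus the mean log2 level of 10 podocyte markers in the same library (vertical axis), by group. Each point is 1 mouse and black bars are mean ± SD. The groups do not overlap, with control between 1.57 and 1.78, day 1 MN between 1.87 and 2.32 and day 5 MN between 2.49 and 2.77. The marker mean itself differed from control by -0.15 at day 1 and -0.19 at day 5. The share of all genes that separate on this measure was not computed.

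*Cdkn1b*, the other CIP/KIP gene, was listed at 84.4, 92.5, 80.7, 80.4 and 74.5 TPM in control. It had 69.5, 77.6, 78.9 and 68.0 TPM at day 1, and 78.5, 79.3, 71.8 and 73.1 TPM at day 5. All 3 groups overlapped. The log2 fold change was -0.12 ± 0.07 (limma adjusted p = 0.51) at day 1 and -0.09 ± 0.07 (adjusted p = 0.56) at day 5. The ratio of mean *Cdkn1c* TPM to mean *Cdkn1b* TPM was 15.1 in control, 19.7 at day 1 and 26.4 at day 5.

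Among the INK4 genes, *Cdkn2c* was called at day 5. Control libraries had 11.9, 12.5, 14.1, 12.1 and 7.16 TPM, day 1 libraries 12.7, 13.2, 10.6 and 14.3 TPM, and day 5 libraries 23.0, 31.6, 34.4 and 21.7 TPM. Every day 5 library was above every other library, and day 1 overlapped with control. Control replicate 5, the lowest, was also the library with the highest summed proximal tubule markers. The log2 fold change was 1.27 ± 0.18 at day 5 (limma adjusted p = 7.50e-04) and 0.20 ± 0.18 at day 1 (adjusted p = 0.666). Without control replicate 5 the day 1 value was 0.06, and the day 5 value remained called. Day 5 was higher than day 1 by 1.06 ± 0.19 (adjusted p = 0.00639), a call that was lost with a tubular marker score as covariate in the limma fit (0.88, adjusted p = 0.0709).

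*Cdkn2d* was listed at 20.4, 19.4, 19.5, 17.8 and 19.8 TPM in control and at 15.9, 19.9, 16.0 and 17.0 TPM at day 1. At day 5 it had 30.7, 26.7, 25.4 and 20.6 TPM. The lowest day 5 library was only just above the highest control and day 1 libraries. The day 5 log2 fold change of 0.43 ± 0.12 passed on p-value (limma adjusted p = 0.0470) and missed the size for a call. The pass on p-value held in 2 of 13 leave-one-out fits (adjusted p = 0.0123 to 0.141), and in 1 of them, without day 5 replicate 4, it was called (0.54, adjusted p = 0.0123). Day 5 was higher than day 1 by 0.55 ± 0.12 (adjusted p = 0.0315). That call was lost in 6 of 13 fits that left out 1 library, those without day 1 replicates 1, 3 or 4 or day 5 replicates 1, 2 or 3 (adjusted p = 0.0612 to 0.111), and after scaling the day 5 and day 1 libraries overlapped.

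*Cdkn2b* was near the lower end of the genes tested. It was listed at 1.53, 1.23, 2.48, 1.22 and 1.48 TPM in control, 1.84, 2.21, 2.05 and 1.47 at day 1, and 1.48, 2.23, 2.19 and 1.68 at day 5. The groups overlapped throughout. Its log2 fold change was 0.25 ± 0.20 (limma adjusted p = 0.63) at day 1 and 0.24 ± 0.20 (adjusted p = 0.569) at day 5.

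*Cdkn3*, the phosphatase, had 1.06, 1.90, 0.372, 1.09 and 0.932 TPM in control and 1.14, 1.18, 1.54 and 1.06 TPM at day 1. Day 5 libraries had 7.23, 6.92, 9.48 and 4.17 TPM. Mean TPM was 1.07 ± 0.546 (SD, n = 5) in control, 1.23 ± 0.214 (n = 4) at day 1 and 6.95 ± 2.18 (n = 4) at day 5. The lowest day 5 library was above the highest of the other libraries, which overlapped between control and day 1. The log2 fold change of 2.29 ± 0.27 at day 5 (limma adjusted p = 2.00e-04) was the largest of the 6 genes and understates the ratio of TPM, since 0.5 was added. At day 1 it was 0.23 ± 0.27 (adjusted p = 0.759), and day 5 exceeded day 1 by 2.06 ± 0.29 (adjusted p = 0.00108). *Cnih1*, which overlaps it on the other strand, lay between 61.4 and 74.3 TPM across all libraries.

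**Figure D3:**
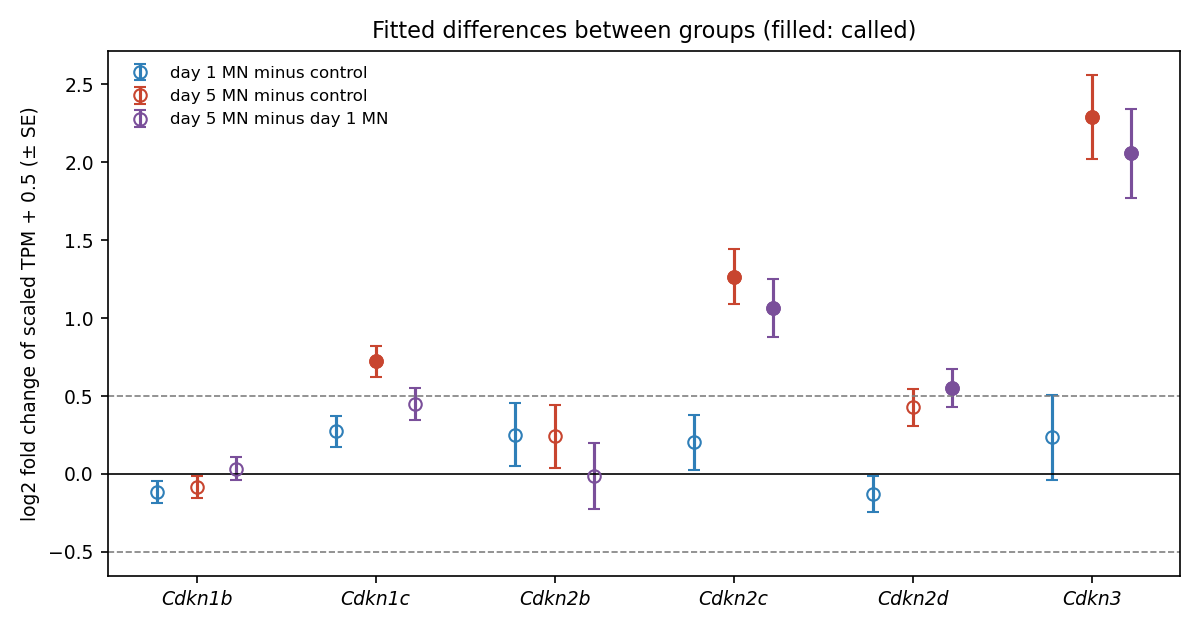
Fitted log2 fold change (vertical axis, of scaled TPM + 0.5, bars ± SE) of each inhibitor for day 1 MN and day 5 MN over control and for day 5 MN over day 1 MN. Filled points passed both thresholds and dashed lines mark ±0.5. *Cdkn1c*, *Cdkn2c* and *Cdkn3* are filled at day 5, and none is filled at day 1.

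Counted over the 6 genes, 0 were called at day 1, when 0.0908% of all genes tested were called, and 1 (*Cdkn1c*) had an unadjusted p under 0.05, as had 12.6% of all genes. At day 5, 3 were called, all higher, against 3.21% of all genes called in either direction and 2.42% called higher. On adjusted p alone 4 were higher, against 4.13% of all genes. Between day 5 and day 1, 3 were called, all higher (*Cdkn2c*, *Cdkn2d* and *Cdkn3*), where 1.81% of genes were called and 1.41% were called higher, and 4 were higher on adjusted p alone, against 1.82%. Listed TPM did not overlap with control for 0 of 6 at day 1 and 4 of 6 at day 5, against 4.22% and 10.8% of all genes, and for 4 of 6 between day 5 and day 1, against 11.0%. With scaled TPM these became 1 of 6 (*Cdkn1c*) at day 1, 4 of 6 at day 5 and 3 of 6 between the days, against 3.50%, 10.7% and 10.6% of all genes. The median log2 fold change of the 6 genes was 0.22 at day 1, 0.57 at day 5 and 0.50 between the days, where the medians over all genes were within 0.01 of 0. The 3 comparisons share libraries in pairs, so their counts are not independent.

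Next came the kinases and cyclins that the inhibitors act on. Of the 5 INK4 targets, the D cyclins with CDK4 and CDK6, 0 were called at either day (median log2 fold change 0.14 at day 5), and *Ccnd1*, cyclin D1, passed on p-value only (0.31, limma adjusted p = 0.0431). Of the 7 CIP/KIP targets, 5 were called higher at day 5 (median 2.51, with *Ccnb1* included) and 0 were called at day 1 (median -0.19). *Cdk1*, the mitotic kinase, went from 5.26 ± 1.79 TPM (SD, n = 5) in control to 40.6 ± 4.75 TPM (n = 4) at day 5. *Ccna2*, the S-phase cyclin A2, went from 2.16 ± 0.690 to 14.2 ± 3.51 TPM. The mitotic cyclin *Ccnb2* (log2 fold change 2.93) and the G1/S cyclin *Ccne2* (0.94) rose as well. The fifth was the mitotic cyclin *Ccnb1*, listed below 1 TPM in every control and day 1 library and at 3.90 to 11.2 TPM at day 5, which entered the test only through its day 5 libraries, so that its call is a description. *Cdk2* (0.30, limma adjusted p = 0.0686) and *Ccne1* (1.08, adjusted p = 0.0714) did not pass. In all, 7 of 9 proliferation markers rose at day 5 and 0 at day 1, among them *Mki67*, which marks cycling cells, from 1.01 ± 0.542 to 11.0 ± 3.35 TPM. These lists were chosen with results of these libraries known, so their direction is not independent evidence.

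Of 8 genes that switch the kinases on or off by phosphorylation, 1 rose at day 5, *Pkmyt1*, an inhibitory kinase of CDK1 (1.59, limma adjusted p = 7.95e-05). Of the ubiquitin ligase parts that degrade CIP/KIP proteins, 10 of 11 symbols were tested and 1 rose, *Cks1b*, the cofactor of SKP2 in p27Kip1 recognition, which went from 5.41 ± 0.357 TPM (SD, n = 5) in control to 17.4 ± 2.43 TPM (n = 4) at day 5. *Skp2* itself had 3.17 ± 0.285 and 3.68 ± 0.738 TPM and did not pass. None of the 4 FOXO factors, known activators of *Cdkn1b*, was called (median -0.12 at day 5). Of 13 RB and E2F genes, 2 were called at day 5. *E2f2* rose, and *E2f8*, at most 0.205 TPM in control and day 1 libraries and 1.71 to 2.60 TPM at day 5, entered the test only through day 5, so that its call is a description. Of 7 DREAM and MuvB genes, 1 rose, *Foxm1*, a factor for mitotic genes (4.11 ± 0.875 to 10.3 ± 2.71 TPM). None of these genes was called at day 1.

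**Figure D4:**
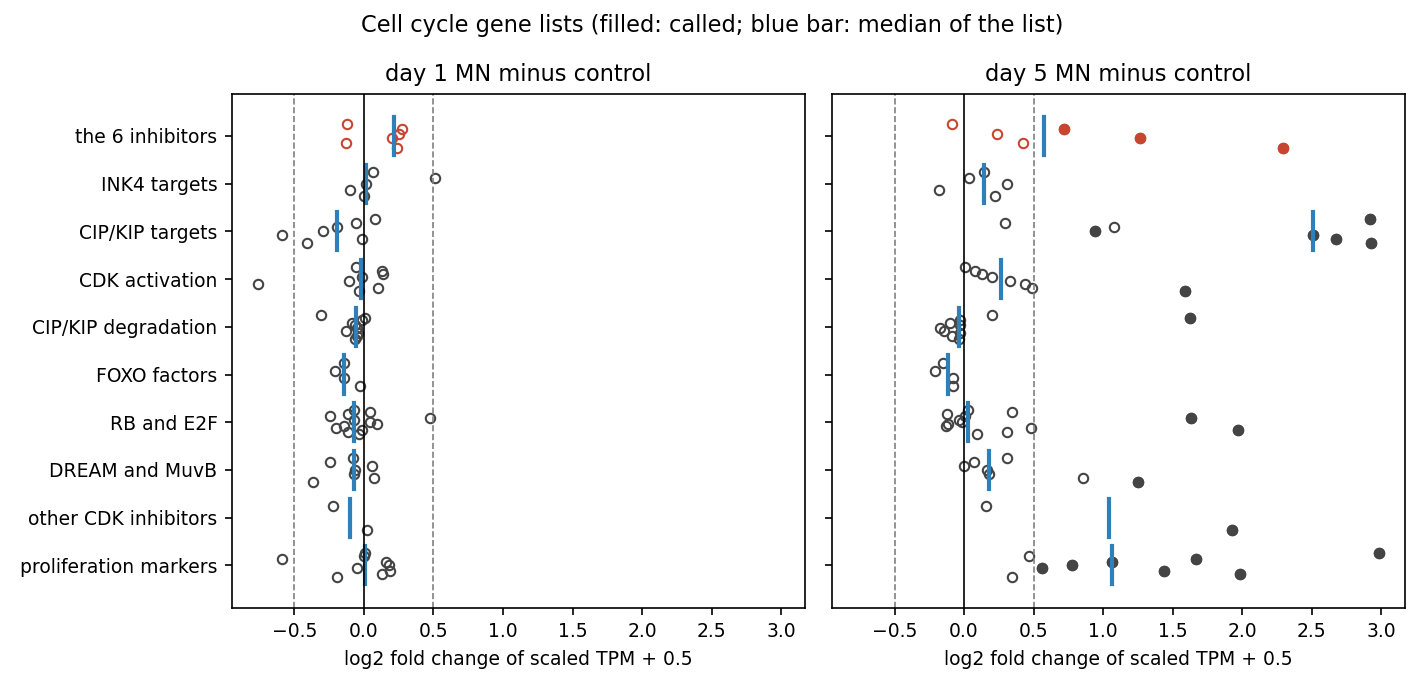
Log2 fold change over control (horizontal axis, of scaled TPM + 0.5) at day 1 MN and day 5 MN for the 6 inhibitors and for 9 lists of cell cycle genes. Each point is 1 gene, filled points were called, blue bars are list medians and dashed lines mark ±0.5. The CIP/KIP targets have the highest median at day 5, 2.51, with *Ccnb1* included. The filled points of *Ccnb1*, *E2f8* and *Cdkn2a* are descriptions, since these genes entered the test only through day 5. No point is filled at day 1.

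The family's remaining members, *Cdkn1a* (p21Cip1) and *Cdkn2a* (p16Ink4a and p19Arf), were read as well. *Cdkn1a* ranged from 33.2 to 83.2 TPM in control, 21.1 to 65.1 at day 1 and 41.7 to 71.1 at day 5 and was not called. *Cdkn2a* was listed at 0.124, 0, 0.139, 0 and 0 TPM in control and at 0.263, 0, 0 and 0 at day 1, against 1.25, 2.12, 1.66 and 1.39 TPM at day 5. It entered the test only through its 4 day 5 libraries, so that its call there is a description. The table gives 1 value per symbol, so p16Ink4a and p19Arf transcripts could not be told apart.

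Across the 13 libraries, the tested genes most like each inhibitor in log2 level were taken by Pearson's r, as a description, since the libraries share 3 groups. For *Cdkn3* these were *Poglut3* (r = 0.966), *Lmnb1*, *Ccnb1*, *Cks1b* and *Melk* (r = 0.957). After subtracting group means the 5 values were 0.659 to 0.848, but these genes were picked for high r in the same libraries. With genes not picked so, r of *Cdkn3* after subtracting group means was 0.21 for *Mki67*, 0.26 for *Ccna2* and -0.17 for *Cdk1*. For *Cdkn2c* they were *Cplx2* (0.976), *Cald1*, *Cdc20*, *Rrm2* and *Lmnb2* (0.947). *Cdkn2c* and *Mki67* had r = 0.937, and 0.636 after subtracting group means. *Cdkn1c* was closest to *Ywhae* (0.955), *Akip1*, *Crim1*, *Itgav* and *Calu* (0.923), and its r with *Mki67* was 0.796, but -0.18 after subtracting group means. *Cdkn2d* was closest to *Ube2s* (0.938), *Cdkn1b* to *Tmf1* (0.936) and *Cdkn2b* to *Ppm1l* (0.842).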

How the data were processed

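RNA of isolated glomeruli was sequenced, 1 library per mouse. The authors trimmed and checked reads (Trimmomatic 0.39 and FastQC 0.11.9, per the labels), quantified them with kallisto 0.46.2 against GRCm39 and deposited TPM, 1 value per gene symbol and library. Their own DESeq2 tests of counts were not used, so depth is unknown. Groups came from sample titles. Scaling factors were medians of ratios over the 15772 genes that no library lists at 0, and log2 was taken after adding 0.5 to scaled TPM. The filter kept genes reaching a TPM of 1 in 4 or more libraries. They entered 1 limma fit of all 13 libraries (version 3.58.1, R 4.3.3) with a mean-variance trend and Benjamini-Hochberg adjustment per contrast. The fit was tested on simulated data. Other values were compared by exact two-sided permutation in Python 3.11.15.

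The genes and lists were chosen with earlier results of these data known. Named were the 6 inhibitors, genes of the lists, and for each inhibitor the 5 genes with the highest Pearson's r. Alternatives covered pseudocounts, scaling, filters, the trend, the samples in the fit, a replicate block, quality weights, a tubular marker covariate, the adjusted p alone and leaving out each library.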

Additional observations from a re-analysis of the deposited data

Results flagged for a closer look

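*Cdkn2b* in control replicate 3, at 2.48 TPM, stood apart from the other 4 control libraries. It was the 1 flagged among 18 combinations of a gene and a group examined in this way, and chance gives about 1 in 20. The day 5 difference from control was larger than the day 1 difference by 1.06 on the log2 scale for *Cdkn2c*, by 0.55 for *Cdkn2d* and by 2.06 for *Cdkn3*, as tested directly between day 5 and day 1 in the limma fit. The call of *Cdkn2d* was lost in 6 of 13 leave-one-out fits and 4 of 11 others, and its scaled libraries overlapped. That of *Cdkn2c* was lost in 1 of 11 others.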

How the results depend on the processing

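At day 1, 0 inhibitors were called under each of the 25 alternatives. At day 5, *Cdkn1c* and *Cdkn2c* were called in every fit and *Cdkn3* in every fit that tested it. The count was 2 to 4, with 2 when TPM of at least 1 in every library was required and *Cdkn3* was not tested. Over the leave-one-out fits the limma adjusted p ranged up to 0.00375 for *Cdkn1c*, 0.00473 for *Cdkn2c* and 0.00163 for *Cdkn3*. *Cdkn2d* passed on adjusted p at day 5 in 2 of 13 leave-one-out fits and 5 of 11 others (0.0123 to 0.141). With a tubular marker score as covariate, 1 inhibitor (*Cdkn3*) was called between day 5 and day 1, the adjusted p being 0.0709 for *Cdkn2c* and 0.128 for *Cdkn2d*; the cause was not tested. *Cdkn2d* also lost that call with no filter (0.0552), with only the compared groups (0.0689) and with quality weights (0.0513). Differences between the days near 0 changed sign, *Cdkn1b* to -0.0678 and *Cdkn2b* to 0.0139 with the tubular covariate, and over leave-one-out *Cdkn1b* ranged from -0.00455 to 0.0802 and *Cdkn2b* from -0.103 to 0.0611.

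Counts over all genes moved more. The 13 genes called at day 1 became 6 without the filter, 7 without the trend, 2 with only the compared groups, 0 with the tubular covariate in the limma fit (1226 at an unadjusted p under 0.05) and 3 to 218 on leaving out a library, 218 without control replicate 5. The 460 genes at day 5 became 876 on adjusted p alone. The 259 between the days became 153 with TPM of at least 1 in every library, 414 with only the compared groups, 164 with the tubular covariate and 150 to 437 on leaving out a library, 437 without control replicate 5. Libraries with the same replicate number, which are different mice, did not deviate together (12 pairs, r from -0.06 to 0.09), and a replicate block gave 149, 348 and 331 genes at day 1, at day 5 and between the days, with 0, 3 and 3 inhibitors called.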
